A study of Homo sapiens with 12 samples.

Results

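CAMA-1 cells exposed to abemaciclib together with fulvestrant were compared with cells given DMSO alone, to describe the transcriptome left by joint inhibition of CDK4/6 and the oestrogen receptor (ER). The comparison used 6 of the 12 libraries of the series, 3 labelled with the 2 drugs and 3 with DMSO, chosen by the treatment label, and covered all 11803 genes that passed a filter on low counts out of 60612 named genes. CAMA-1 is an ER-positive luminal line established from a human breast tumour, and the labels give every library the genotype Wild-type. The other 6 libraries, 3 with abemaciclib at 100 nM and 3 with fulvestrant at 5 nM, are shown beside the results where they bear on them. For the combination the labels name both agents without a dose, and DMSO is the solvent in which the drugs were dissolved. RNA came from bulk cultures of 1 cell line in 1 experiment with 3 biological replicates per arm, so the adjusted p values below measure the spread between these cultures.

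Abemaciclib blocks CDK4 and CDK6, the kinases that cyclin D1 switches on in G1 and that phosphorylate the retinoblastoma protein Rb. Unphosphorylated Rb and its relatives hold E2F factors at the promoters of genes for DNA replication, and the DREAM complex, built from the Rb relatives p107 or p130, E2F4 and the MuvB core, does the same at genes for mitosis. Fulvestrant binds ER and promotes its degradation. In luminal breast cancer ER drives its own set of target genes, among them the cyclin D1 gene CCND1, so both drugs act on the G1 step of the cell cycle.

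Total counts ranged from 3299119 to 5164667 in the DMSO libraries and from 4276925 to 5018809 in the combination libraries. A transcript with no read was therefore measured to be under 3 counts, or 0.582 to 0.722 CPM (counts scaled to a common library total) in the 3 combination libraries, which covers counting error only. Levels below are CPM on TMM-scaled library sizes, as mean ± SD of 3 libraries, and log2 fold changes are the combination minus DMSO with their standard errors. The kit primes at the 3′ end of transcripts, so a count depends little on transcript length. Ranks between genes are rough all the same, because the kit reads poly(A) RNA and near-identical genes can share reads. Composition differed between the groups: mitochondrial transcripts took 12.0% to 12.6% of the counts in DMSO and 15.6% to 19.2% in the combination, and ribosomal protein genes 9.15% to 9.43% against 4.90% to 4.97%. Neither pair of ranges overlapped, and the exact two-sided permutation p was 0.1 for each, the smallest that 3 against 3 libraries allow. Markers of other cell types were near 0: of 19 non-luminal genes 2 passed the filter and 10 had no read in any of the 6 libraries, and the summed level of all 19 was 19.3 to 23.4 CPM in DMSO and 25.2 to 29.8 CPM in the combination. Among the defining ones, KRT5, KRT14, TP63, PECAM1, PTPRC and CD3E averaged 0 CPM in DMSO. Of the 2 that passed, the collagen gene COL3A1 rose from 3.37 ± 0.173 to 6.94 ± 0.88 CPM (log2 fold change 1.05 ± 0.30, adjusted p = 0.00436), and its part in the results was not tested.

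The combination changed 6519 genes past an adjusted p of 0.05, which is 55.2% of those tested. Of these, 3273 (27.7%) were higher and 3246 (27.5%) lower, and the median over all genes tested was 0.01. Large changes were more often falls. At 2-fold or more, 1071 genes rose and 1270 fell. At 4-fold or more the counts were 173 and 470, and at 8-fold or more 36 and 259. In bulk RNA, a fall in a gene's level within every cell and a fall in the number of cells that express it cannot be told apart. Detection depended on the level: of 2886 genes under 10 CPM in both groups 35.1% passed, against 88.3% of the 120 genes with 1000 CPM or more in either group. Leaving out any single DMSO or combination library gave between 5835 and 6197 genes.

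**Figure D1:**
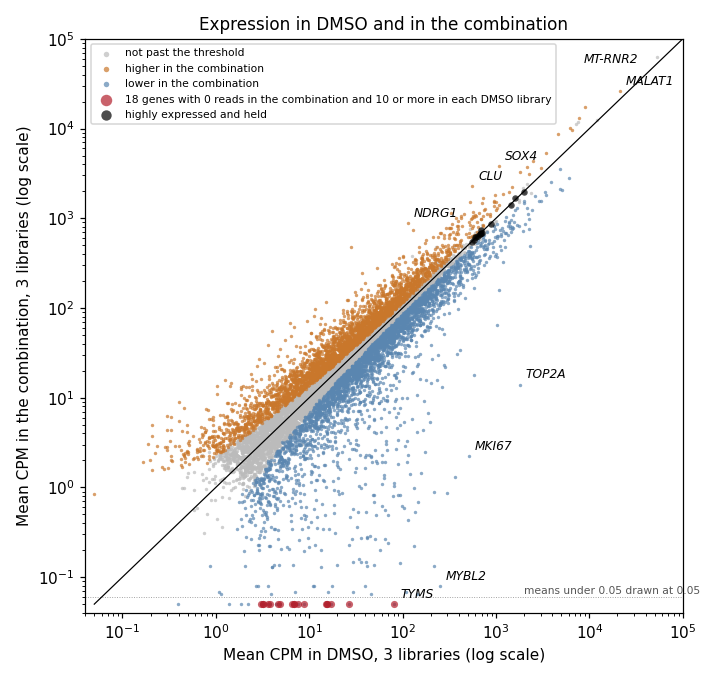
Mean CPM of the 11803 genes tested in DMSO (horizontal axis) and in the combination (vertical axis), both on log scales, each mean over 3 libraries. Points below the diagonal fan out towards the horizontal axis, where TYMS and the other 17 genes with no read in the combination lie, while the spread above it is narrow and NDRG1, CLU and SOX4 stand out.

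Genes that lost every read were sought first. A gene was counted as lost when it had at least 10 reads in each DMSO library and 0 reads in all 3 combination libraries. Of 10603 genes with that many reads in DMSO, 18 (0.17%) met this rule, and together they went from 3148 reads in the DMSO libraries to 0. Leaving out a combination library gave 30 (replicate 2) or 27 (replicates 1 and 3), and leaving out a DMSO library 18 to 21. TYMS, which encodes thymidylate synthase, the enzyme that makes the thymidine nucleotide for DNA, had 242, 418 and 446 reads in the DMSO libraries. EXO1, an exonuclease of mismatch repair and recombination, had 100, 139 and 112, and no combination library held a read of either gene. Against the floor of 3 counts per library, TYMS was at least 126-fold lower and EXO1 at least 41.2-fold lower. These folds were fixed by the rule and are given as a description, with no test.

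The other 16 lost genes fall into groups by what they are known to do. ORC1 is the subunit of the origin recognition complex that is made anew in each cycle, ESCO2 acetylates cohesin in S phase, NEIL3 is a DNA glycosylase and PIF1 a DNA helicase. ESCO2 was at least 24.1-fold lower, ORC1 at least 11.7-fold, NEIL3 at least 10.7-fold and PIF1 at least 4.95-fold. Another 4 act in or around mitosis: the kinase CIT in cytokinesis (at least 24.4-fold), the helicase ERCC6L at anaphase DNA bridges (23.4-fold), the histone H3 kinase HASPIN (10.2-fold) and PIMREG (26.5-fold). E2F7, a repressor of the E2F family that is itself switched on in S phase, and the linker histone gene H1-5 had 18, 24 and 22 and 17, 16 and 13 reads in DMSO. A further 5 have no textbook role in the cell cycle: the calmodulin-binding neurogranin gene NRGN (at least 13.7-fold), the neuropeptide gene NMU (10.7-fold), the potassium channel gene KCNH2 (5.98-fold), the homeobox gene DMBX1 (4.97-fold) and the intermediate filament gene NES (4.7-fold). CDC20P1 (7.22-fold) is annotated as a processed pseudogene of CDC20, and its reads cannot be told apart from reads of the parent gene with certainty. NES and PIF1 lay just inside the rule, each with a lowest DMSO count of 10.

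The single drugs, which the rule did not use, left reads on all of these genes. The 18 genes summed to 585 reads under abemaciclib and 189 under fulvestrant, and none of them was at 0 in all 3 libraries of either drug. TYMS had 40, 55 and 68 reads under abemaciclib and 25, 28 and 12 under fulvestrant. ERCC6L had 28, 24 and 26 and 5, 3 and 2, and E2F7 0, 0 and 2 and 2, 2 and 2. No library held more than 3 reads for 3 of the 18 under abemaciclib and for 9 under fulvestrant. By reads summed over 3 libraries, both single drugs were below DMSO for all 18 genes, and fulvestrant was below abemaciclib for 16, with E2F7 and DMBX1 as the exceptions. The rule chose these genes by their DMSO and combination reads, so the place of a single drug between those groups is a description and was not tested.

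**Figure D2:**
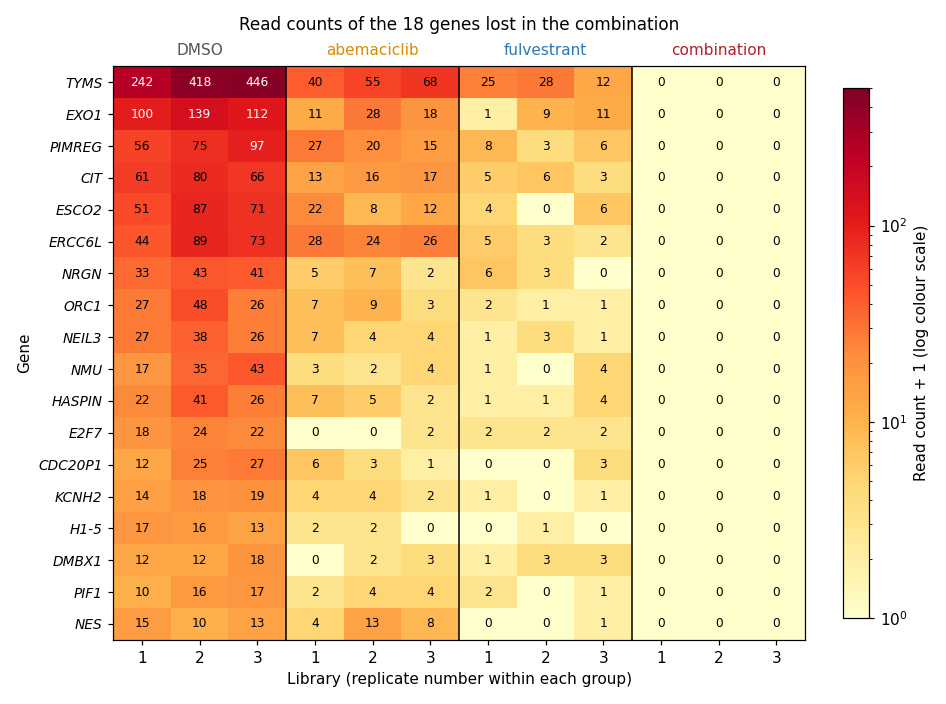
Read counts of the 18 lost genes (rows) in all 12 libraries (columns, 3 per group), printed in each cell and coloured by count + 1 on a log scale. All 54 combination cells are 0, while abemaciclib and fulvestrant cells hold up to 68 and 28 reads (TYMS).

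Promoters of the lost genes are shown because E2F and DREAM act there on known sequence elements. RefSeq promoter windows on GRCh38.p14, from 250 bases before to 50 after the annotated start, matched 14 of the 18 genes, while PIMREG, ESCO2, HASPIN and CDC20P1 are named only. The windows were searched on both strands for the cell cycle homology region (CHR; TTTGAA or TTCGAA), the CCAAT box (CCAAT) and E2F sites (TTTCCCGC, TTTGGCGC, TTTGCCGC or TTTCGCGC). An E2F site lay in the windows of TYMS and EXO1, 2 of 14 genes (14.3%), against 3.99% of all 27305 genes in the table and 3.31% of its 35116 windows. A CHR lay in 5 of 14 (CIT, ERCC6L, NEIL3, H1-5 and PIF1, or 35.7%), against 19.5% of all genes and 16.4% of windows. A CCAAT box lay in 10 of 14 (71.4%), against 39.7% and 34.6%. In ERCC6L the CHR and a CCAAT box share a base, and in CIT they abut. Matches describe letters in these windows and nothing about binding. The windows of TYMS (chr18:657403-657702, plus strand), EXO1 (chr1:241847954-241848253, plus strand), CIT (chr12:119877271-119877570, minus strand), NEIL3 (chr4:177309624-177309923, plus strand) and PIF1 (chr15:64825598-64825897, minus strand) are printed 5′ to 3′ along each gene, with every match in capitals.
TYMS: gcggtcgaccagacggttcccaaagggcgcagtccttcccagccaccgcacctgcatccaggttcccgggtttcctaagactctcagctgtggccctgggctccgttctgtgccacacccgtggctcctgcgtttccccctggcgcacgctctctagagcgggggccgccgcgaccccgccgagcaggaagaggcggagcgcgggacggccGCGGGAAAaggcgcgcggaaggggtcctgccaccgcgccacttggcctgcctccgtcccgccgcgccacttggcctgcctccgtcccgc
EXO1: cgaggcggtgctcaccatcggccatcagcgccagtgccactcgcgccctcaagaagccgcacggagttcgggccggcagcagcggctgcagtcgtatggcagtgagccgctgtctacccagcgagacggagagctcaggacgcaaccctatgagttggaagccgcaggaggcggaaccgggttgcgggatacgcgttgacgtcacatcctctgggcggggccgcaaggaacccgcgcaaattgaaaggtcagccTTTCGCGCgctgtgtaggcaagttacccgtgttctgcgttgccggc
CIT: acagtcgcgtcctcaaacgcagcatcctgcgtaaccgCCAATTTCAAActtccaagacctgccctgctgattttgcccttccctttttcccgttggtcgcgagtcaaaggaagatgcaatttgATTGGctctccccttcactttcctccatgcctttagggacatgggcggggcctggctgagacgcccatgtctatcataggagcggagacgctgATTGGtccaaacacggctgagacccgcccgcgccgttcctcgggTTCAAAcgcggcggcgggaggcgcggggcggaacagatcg
NEIL3: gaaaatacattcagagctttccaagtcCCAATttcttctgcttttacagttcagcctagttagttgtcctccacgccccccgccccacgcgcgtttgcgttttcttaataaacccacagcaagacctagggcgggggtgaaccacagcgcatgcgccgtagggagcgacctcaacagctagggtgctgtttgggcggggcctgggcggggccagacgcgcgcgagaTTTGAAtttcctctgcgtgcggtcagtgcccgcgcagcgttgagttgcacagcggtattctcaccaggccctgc
PIF1: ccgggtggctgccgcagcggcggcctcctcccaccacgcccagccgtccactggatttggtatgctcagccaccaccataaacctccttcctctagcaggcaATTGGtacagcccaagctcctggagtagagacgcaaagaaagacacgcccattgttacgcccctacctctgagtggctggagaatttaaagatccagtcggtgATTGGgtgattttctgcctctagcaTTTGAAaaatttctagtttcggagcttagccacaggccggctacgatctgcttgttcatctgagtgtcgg
The TYMS match is an E2F site read on the opposite strand at bases 212 to 219 of the window, and the EXO1 match an E2F site at bases 255 to 262, counted from 1 at the 5′ end. NEIL3 and PIF1 each hold 1 CHR, at bases 227 to 232 and 231 to 236, close before the start at base 251. CIT holds 2, at bases 43 to 48 and 261 to 266. In the windows of ERCC6L and H1-5, which are not printed, the CHR lies further from the start, at bases 39 to 44 and 74 to 79.

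A wider class was at the floor, with no more than 3 reads in any combination library. It held 94 genes, 0.887% of the genes with at least 10 reads in each DMSO library, and the 76 of them that kept a stray read went from 30803 reads in DMSO to 269. MYBL2, which encodes the B-Myb factor that joins the MuvB core to activate mitotic genes, was the most abundant in DMSO. It measured 219.9, 264 and 271 CPM in the DMSO libraries and 0.241, 0 and 0 CPM in the combination, at least 392-fold lower. RRM2, the S phase subunit of ribonucleotide reductase, went from 217 ± 7.09 to 0.134 ± 0.116 CPM (at least 338-fold), the condensin subunit gene NCAPG from 143 ± 6.29 to 0.0647 ± 0.112 CPM (at least 222-fold) and the replication factor gene MCM10 from 109 ± 3.87 to 0.0689 ± 0.119 CPM (at least 170.0-fold). Cyclin A2, the kinesin KIF4A and the kinetochore protein NDC80 were in the same class, with CCNA2 at least 147-fold, KIF4A 176-fold and NDC80 100.0-fold lower.

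Of the 94, 35 (37.2%) are in 1 of the 7 cell cycle lists used below, which hold 1.5% of the genes tested, and genes outside those lists, such as CIT, HASPIN and ESCO2, also have roles in replication or mitosis. Other floor genes are known for other functions. The chemokine gene CXCL12 (7.07 to 0.0689 CPM), the co-receptor gene GFRA1 (6.47 to 0.347 CPM) and the plasma protein gene AMBP (4.67 to 0.263 CPM) were also at the floor, and each had 0 reads in all 3 fulvestrant libraries but 6.84, 3.97 and 1.48 CPM under abemaciclib. CXCL12 and GFRA1 are known ER targets. The lipid droplet gene PLIN5 and the neuropeptide gene GAL were likewise near 0 with fulvestrant (0.158 and 0.246 CPM) and near the DMSO level with abemaciclib (3.41 and 3.34 CPM, against 4.02 and 4.15 CPM). The peptidoglycan recognition gene PGLYRP2 stood at 6.7 CPM in DMSO, 15 with abemaciclib, 0.0824 with fulvestrant and 0.138 with both. TYMSOS and TMPO-AS1, which overlap TYMS and TMPO on the other strand, were at the floor too, but the strand setting of the counts is not given in the sources used here, so their reads may belong to their partners.

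No gene made the reverse move. None had 0 reads in all DMSO libraries and at least 10 in each combination library (1 did without DMSO replicate 2, 2 without DMSO replicate 3 and 1 without combination replicate 1). At the floor in DMSO with at least 10 reads in each combination library there were 13. The highest of these in the combination were PHLDB2, which helps organise the cell cortex (0.3 to 6.18 CPM), the sperm fibrous sheath gene FSIP2 (0.33 to 6.08 CPM), the homeobox factor PROX1 (0.207 to 4.91 CPM), the carboxypeptidase CPA4 (0.333 to 4.42 CPM) and the calcium channel TRPV6 (0.3 to 4.4 CPM). All stayed under 10 CPM. The atypical chemokine receptor gene ACKR3, whose ligands include CXCL12, was among them at 0.19 CPM in DMSO, 3.53 with fulvestrant and 3.04 with both.

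The cell cycle machinery as a whole was then followed through 7 lists (origin licensing and firing, DNA synthesis, mitotic kinases, kinetochore, spindle, chromosome condensation and fork repair). Together they held 177 genes tested, of which 173 were lower, 1 higher and 3 not past the threshold, where 27.5% of all genes tested were lower, with a median of -3.78 beside 0.01 for all genes. A fall of 4-fold or more was seen in 136. Only 3 of the 177 lost every read and 35 were at the floor, so most remained measurable: 57 were still at 10 CPM or more in the combination and 7 at 100 CPM or more. Those 7 were CKS1B (187 CPM), STMN1 (169), MSH6 (146), RRM1 (141), DUT (128), DNMT1 (123) and RFC1 (121), each of which had itself fallen, from 350.1, 578, 230.5, 391, 469.7, 356 and 208 CPM.

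Genes for licensing and firing of replication origins fell in 22 of 24 cases (median -3.01, or -2.97 with genes at the floor set to their bound). The MCM2-7 helicase, which is loaded at origins in G1, kept part of its transcripts. MCM2 fell from 153 ± 21.2 to 16 ± 4.07 CPM (log2 fold change -3.27 ± 0.18, adjusted p = 1e-10) and MCM7 from 127 ± 3.52 to 18.9 ± 1.63 CPM, while MCM4 fell least of the 6, from 133 ± 6.58 to 62.3 ± 7.96 CPM (log2 fold change -1.09 ± 0.10, adjusted p = 7.03e-10). The licensing factor CDT1 and the loader CDC6 went further, CDT1 from 89.9 to 1.84 CPM (-5.59) and CDC6 from 60.8 to 1.9 CPM (-4.98). The origin recognition complex split: ORC1 lost all reads and ORC6 fell (-4.15, adjusted p = 1.14e-15), ORC2 fell by less (-0.55), and ORC4 (0.06, adjusted p = 0.771) and ORC5 (-0.29, adjusted p = 0.111, or 0.0374 without DMSO replicate 1) did not pass.

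DNA synthesis and nucleotide supply fell less deeply, with 30 of 32 genes lower and a median of -1.88. The sliding clamp gene PCNA went from 241, 199 and 185 CPM in the DMSO libraries to 27.9, 27.1 and 27 CPM. Replicative polymerase genes kept more, POLA1 falling from 45.6 ± 1.95 to 18.8 ± 1.09 CPM (log2 fold change -1.28 ± 0.14, adjusted p = 7.99e-09) and RPA2, a subunit of the single-strand binding protein, from 54.3 to 26.5 CPM (-1.04). Ribonucleotide reductase showed the widest contrast. Its large subunit RRM1 fell from 391 to 141 CPM (-1.47, adjusted p = 2.03e-13), its S phase small subunit RRM2 fell to the floor, and its alternative small subunit RRM2B, a p53 target that serves cells outside S phase, rose from 14.6 ± 1.58 to 23.4 ± 0.951 CPM (log2 fold change 0.69 ± 0.20, adjusted p = 0.00419). Only POLD1 of this list did not pass (-0.77, adjusted p = 0.0529, or 0.0283 in a fit on the 6 libraries of the comparison).

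Mitotic genes had the lowest medians. All 30 mitotic cyclins, kinases and regulators tested were lower (median -5.75), as were all 31 genes of the centromere, kinetochore and checkpoint (median -5.01) and all 25 of the kinesins, spindle and cytokinesis (median -4.56). With the 8 genes at the floor in each of these lists set to their bound, the medians were -5.19, -4.85 and -4.42. CDK1, the kinase that starts mitosis, went from 106, 91 and 96.7 CPM in DMSO to 0.481, 0.207 and 1.17 CPM (log2 fold change -7.20 ± 0.25, adjusted p = 4.64e-19). Its partners differed, cyclin B2 (CCNB2) falling to 1.12 ± 0.483 CPM from 81.1 ± 2.86 and cyclin B1 (CCNB1) to 5.38 ± 0.378 from 103 ± 5.86. The securin gene PTTG1 and the ubiquitin-conjugating enzyme gene UBE2C, both of anaphase onset, were among the deepest falls above the floor, PTTG1 from 362 ± 15.7 to 1.3 ± 0.612 CPM (-8.05) and UBE2C from 137 ± 20.4 to 0.526 ± 0.591 CPM (-7.85). WEE1 (-0.85, adjusted p = 7.78e-05) and CKS1B (-0.91, adjusted p = 0.00165) fell least in the kinase list.

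Within the 7 lists the largest loss in CPM was that of topoisomerase IIα, which untangles chromosomes. TOP2A stood at 1884, 1750 and 1767 CPM in the DMSO libraries, rank 40 of all genes, and at 14.4, 16.8 and 10.9 CPM in the combination (log2 fold change -7.01 ± 0.13, adjusted p = 1.89e-24). In the same list of 11 chromosome condensation genes, all lower (median -3.78), SMC2 and SMC4, the core of condensin, fell to 97.2 ± 7.84 CPM from 396 ± 51.4 and to 30.6 ± 2.81 from 386 ± 31.4. FAM111B, a protease linked to replication, had the largest of the falls above the floor that met the rule for named genes, from 298 ± 3.7 to 0.868 ± 0.632 CPM (log2 fold change -8.41 ± 0.21, adjusted p = 5e-20). Fork repair genes were lower in 25 of 25 cases (median -3.31, or -3.10 with the bounds), with CLSPN from 172 to 2.49 CPM and BRCA2 from 59.9 to 1.1 CPM, while the mismatch repair gene MSH6 (-0.65) fell by less than 1 on the log2 scale.

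Regulators of G1 did not move as 1 group: of 19 tested, 3 were higher, 12 lower and 4 not past the threshold (median -0.39). Of all genes tested, 27.7% were higher and 27.5% lower. The inhibitor p21 gene CDKN1A measured 13.9, 16.7 and 15.1 CPM in the DMSO libraries and 119, 111 and 118 CPM in the combination, 7.51-fold higher (log2 fold change 2.91 ± 0.11, adjusted p = 2.13e-18). The p15 gene CDKN2B, whose product inhibits CDK4 and CDK6, rose from 7.19 ± 0.578 to 37.6 ± 6.14 CPM (log2 fold change 2.37 ± 0.17, adjusted p = 2.13e-12). CDK7, the kinase that activates other CDKs, was the third to rise (0.40), but not without DMSO replicate 1 or 2 or combination replicate 1 or 2 (adjusted p = 0.0699 to 0.183), nor with DESeq2 (adjusted p = 0.0721). The other inhibitors fell or did not pass, with CDKN1B (p27, -0.36) and CDKN2A (p16, -0.39) falling slightly, CDKN1C (p57) by more (-1.45), and CDKN2C (p18), a known E2F target, from 20.2 to 0.905 CPM (-4.40). Cyclin D1 (CCND1) went from 624, 616 and 613 CPM to 244, 237 and 215 CPM (log2 fold change -1.41 ± 0.07, adjusted p = 2.5e-15), and D3 (CCND3) from 80.2 to 36.4 CPM. Cyclin E2 (CCNE2, -3.63) and CDK2 (-1.73) fell, and CDK4, a target of abemaciclib, fell slightly, from 116, 137 and 156 CPM to 116, 109.8 and 116 CPM (log2 fold change -0.26 ± 0.10, adjusted p = 0.0259), but did not pass without DMSO replicate 2 or 3 or without any 1 of the 3 combination replicates (adjusted p = 0.0509 to 0.247).

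Rb and its partners were measured beside their targets. Transcripts of RB1 (60.3 ± 12.2 in DMSO, 47.9 ± 7.54 CPM in the combination, adjusted p = 0.177) and of the p130 gene RBL2 (49.5 ± 8.33 and 49.9 ± 4.87 CPM, adjusted p = 0.887) did not pass. RB1 did pass, as lower, in a fit on the 6 libraries of the comparison (adjusted p = 0.042) and with no filter on low counts (adjusted p = 0.0201). The p107 gene RBL1, itself an E2F target, fell from 32.6 ± 0.8 to 5.24 ± 2.35 CPM (log2 fold change -2.63 ± 0.21, adjusted p = 2.1e-11). The activating factors E2F1 and E2F2 fell to 4.91 and 2.22 CPM from 94.6 and 45.4 (-4.27 and -4.34), E2F3 fell less (-0.68), and the repressors E2F7 and E2F8 were at the floor. E2F4, the E2F of the DREAM complex, stood at 27.3 ± 3.84 and 25.1 ± 1.35 CPM (adjusted p = 0.412). Over the 18 genes tested, 12 were lower, beside 27.5% of all genes, and 6 did not pass (median -0.79).

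ER target genes fell for the most part: of 37 tested, 27 were lower, beside 27.5% of all genes, 6 higher and 4 not past the threshold, with a median of -1.31. Beside the genes at the floor, the prostaglandin synthase gene PTGES fell from 12.1 ± 1.82 to 0.466 ± 0.646 CPM (-4.76), the fatty acid elongase gene ELOVL2 from 143 ± 3.9 to 10.8 ± 0.638 CPM (-3.72) and the factor MYBL1 from 68.1 ± 7.64 to 9.32 ± 1.37 CPM (-2.86). In insulin-like growth factor signalling, transcripts fell for the receptor gene IGF1R (6.98 to 1.75 CPM) and the adaptors IRS1 (19.2 to 2.73 CPM) and IRS2 (10.7 to 1.81 CPM), with adjusted p = 6.53e-05, 7.64e-11 and 6.74e-07. Among the 6 that rose were the cathepsin gene CTSD (0.61), the retinoic acid receptor gene RARA (0.57), the binding protein gene IGFBP5 and FHL2, a LIM domain cofactor. FHL2 was at the floor in DMSO (0.432 ± 0.168 CPM) and at 1.67 ± 0.437 CPM in the combination, so its log2 fold change (1.86) depends on the prior count of the fit. PTGES stood at 78.9 CPM under abemaciclib and 0.0824 under fulvestrant, so the single drugs lay on either side of DMSO for this gene.

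**Figure D3:**
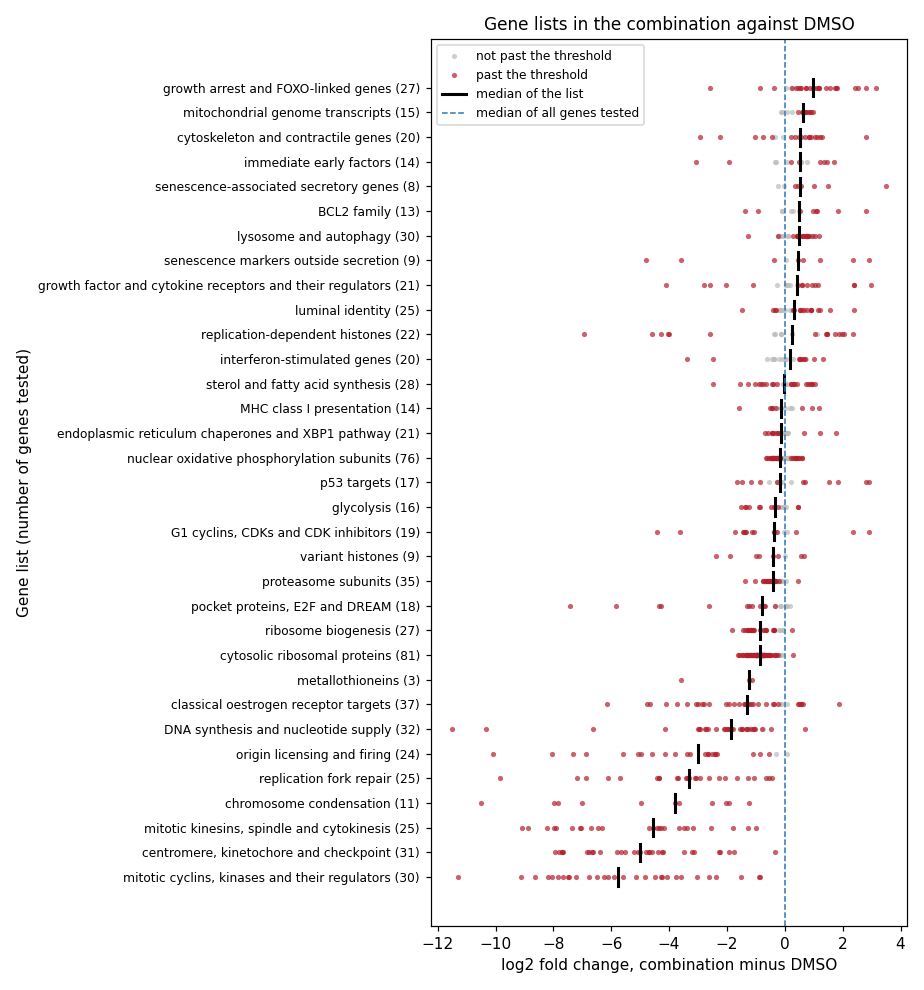
Log2 fold change of the combination against DMSO for each tested member of the gene lists (points, red where the adjusted p is under 0.05), with the median of each list (black bar) and of all genes tested (dashed line, 0.01). Values of genes at the floor depend on the prior count of the fit. The 7 cell cycle lists lie at the bottom with medians from -5.75 to -1.88, and the growth arrest list at the top with 0.97.

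What stayed highly expressed was read from the 200 genes of highest mean CPM in the combination, which ran from 535.6 to 63560 CPM. Of these, 148 were also among the 200 highest in DMSO, and 21 of the top 30 were shared. Among the 200, 94 were higher than in DMSO, 65 lower and 41 not past the threshold, with 31 up and 12 down by 2-fold or more. Read from the other end, the 200 highest genes of DMSO held 44 that rose and 116 that fell, 38 of them by 2-fold or more. The first 8 places were held by 7 mitochondrial transcripts and a nuclear long RNA. MT-RNR2, the large mitochondrial ribosomal RNA, stood at 63560 ± 12770 CPM, with no difference past the threshold (0.26 ± 0.13, adjusted p = 0.101, but 0.0312 to 0.0449 without DMSO replicate 1 or combination replicate 2 or 3), and the nuclear RNA MALAT1 at 26260 ± 1540 against 21250 ± 1310 CPM in DMSO (log2 fold change 0.31 ± 0.09, adjusted p = 0.00699).

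Among protein-coding nuclear genes the highest was IGFBP5, a secreted binder of insulin-like growth factors, at 10260, 9874 and 8653 CPM in the combination libraries against 6558, 6635 and 6205 CPM in DMSO (log2 fold change 0.57 ± 0.08, adjusted p = 3.88e-07). The small heat shock gene HSPB1 was at 4631, 4278 and 4172 against 2269, 2666 and 2532 CPM (log2 fold change 0.81 ± 0.08, adjusted p = 8.3e-10). SOX4, a transcription factor of progenitor and epithelial cells, measured 1087, 1070 and 1037 CPM in DMSO and 3951, 3799 and 3769 CPM in the combination (log2 fold change 1.85 ± 0.09, adjusted p = 2.09e-16), which moved it from rank 83 to rank 13. In all 3 genes every combination library lay above every DMSO library. The luminal factor GATA3 was the next nuclear gene, at 3680 ± 336 against 3019 ± 183 CPM (log2 fold change 0.29 ± 0.09, adjusted p = 0.00844), but the difference did not pass without combination replicate 1 (log2 fold change 0.23, adjusted p = 0.0541).

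Other genes of the top 30 fell and still ranked high. The cytosolic chaperones HSP90AA1 and HSP90AB1 went from 4827 ± 162 to 2130 ± 76.8 CPM (-1.18) and from 4895 ± 187 to 3542 ± 3.95 CPM (-0.47). Prothymosin α (PTMA), abundant in dividing cells, fell from 5056 ± 136 to 2076 ± 95.3 CPM (-1.28), and the chromatin protein gene NUCKS1 from 3858 to 2545 CPM (-0.60). The ribosomal protein genes RPS3 and RPS24 were at 2799 and 1967 CPM (-1.10 and -0.76). Tubulin β (TUBB, 1900 ± 168 CPM), cofilin (CFL1, 2182 ± 103 CPM) and the calcium-binding S100A6 (2439 ± 129 CPM) did not pass (adjusted p = 0.0879, 0.122 and 0.287), although TUBB did without DMSO replicate 1 (0.00513).

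**Figure D4:**
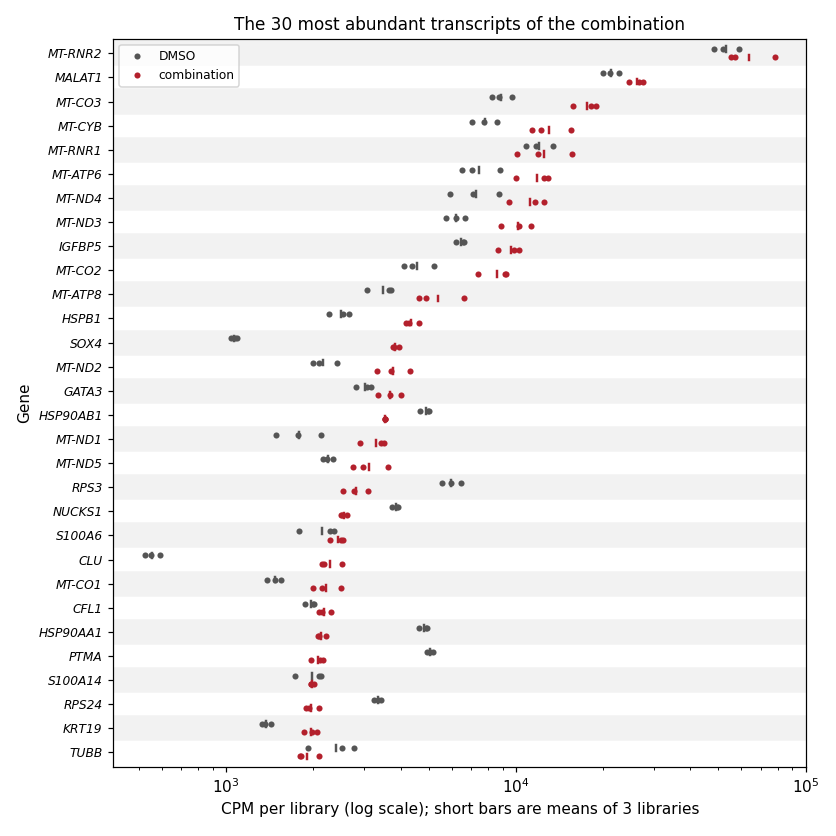
CPM of the 30 most abundant transcripts of the combination in each DMSO (grey) and combination (red) library, on a log axis, with short bars at the means of 3 libraries. SOX4 and CLU lie furthest right of their DMSO points, and RPS3, PTMA and HSP90AA1 furthest left.

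Clusterin showed the largest gain of rank in the top 30. CLU, a secreted chaperone, went from 593, 551 and 525 CPM to 2519, 2150 and 2178 CPM, 4.1-fold higher (log2 fold change 2.04 ± 0.08, adjusted p = 7.43e-18). Of the 52 genes that entered the top 200, NDRG1, a gene of stress and differentiation, rose from 114 ± 12.3 to 886 ± 43 CPM (2.95), TXNIP, an inhibitor of thioredoxin and glucose uptake, from 128 ± 17.3 to 741 ± 20.5 CPM (2.52) and the acyl-CoA binding gene DBI from 532 ± 41.8 to 1535 ± 33.2 CPM (1.53). Those that left included TOP2A, the tubulin gene TUBA1B (2309 to 494 CPM), the histone gene H4C3 (1038 to 64.6), the chromatin gene DEK (1070 to 159), the kinetochore gene CENPF (582 to 18.1), NPM1, CCND1 and GAPDH. GAPDH, often used as a reference gene, fell from 643 ± 60.6 to 254 ± 22.9 CPM (-1.34, adjusted p = 2.43e-13).

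Some abundant genes were held. A gene was called held when the 95% interval of its log2 fold change lay within 0.25 of 0. This was so for 14 of the 200 highest genes (7%), against 269 of all genes tested (2.28%), and intervals are narrower for abundant genes. The held genes included the calcium-binding S100A14 (1984 ± 216 and 1979 ± 24.2 CPM), the growth-related TPT1 (1608 ± 7.91 and 1668 ± 98), the 14-3-3 protein gene YWHAB (1448 ± 21 and 1402 ± 40.1), the glycolytic enzyme ENO1 (895 ± 32.2 and 873 ± 42.6) and the secretory pathway receptor KDELR1 (697 ± 31.1 and 745 ± 34.7). ATP1B1 of the sodium pump, TMED9 of the secretory pathway, the ubiquitin gene UBB, the splicing factor SON, the actin capping gene CAPZA1, the chaperone HSPA5, the G protein subunit gene GNAS, NDUFB9 of respiratory complex I and CPT1A of fatty acid oxidation made up the rest, between 537 and 692 CPM. With abemaciclib alone ATP1B1 stood at 342 CPM and S100A14 at 3256 CPM.

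Luminal identity genes rose more often than they fell. Of 25 tested, 14 were higher, beside 27.7% of all genes, 4 lower and 7 not past the threshold (median 0.30). The receptor tyrosine kinase gene ERBB2 measured 41, 54.9 and 64.1 CPM in DMSO and 289, 284 and 271 CPM in the combination, 5.21-fold higher (log2 fold change 2.38 ± 0.11, adjusted p = 2.91e-16), and its partner ERBB3 rose from 184 ± 11.7 to 408 ± 27.7 CPM (log2 fold change 1.15 ± 0.08, adjusted p = 3.21e-12). Keratin 7 (KRT7) went from 213 ± 26.4 to 620.1 ± 50.5 CPM (1.55) and the tight junction gene CLDN3 from 329.6 ± 32.5 to 772 ± 70.9 CPM (1.23). The pioneer factor FOXA1 (227 ± 8.11 and 259 ± 33.6 CPM, adjusted p = 0.0762, or 0.0089 without combination replicate 3), GRHL2 (-0.01, 0.973) and SPDEF (-0.17, 0.119) did not pass. KRT8, KRT18, TFAP2C and AGR2 were lower, AGR2 the most (10.1 to 3.71 CPM, -1.47).

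The largest rises were taken among genes with at least 10 CPM in the combination, no overlap between libraries and reads above the floor in DMSO. Among them was SIGLEC15, a lectin that binds sialic acid, with 3.56, 4.18 and 4.13 CPM in DMSO and 47.2, 59.1 and 61.5 CPM in the combination, 13.9-fold higher (log2 fold change 3.80 ± 0.18, adjusted p = 4.7e-16). Genes of membrane, receptor and secreted proteins in the list were the scavenger receptor COLEC12 (3.69), the glutamate receptor GRM4 (3.42), the Wnt receptor FZD7 (3.38), CRISPLD2 (3.75) and the phospholipase PLA2G2A (2.96). Cytoskeletal genes were MAP2 (3.30), MYLK (2.86), KIFC3 (2.87) and ACTA2 (2.80). Brakes on growth factor signalling were PIK3IP1, an inhibitor of PI3-kinase (6.92 ± 0.444 to 61 ± 6.33 CPM, 3.14), and SOCS2, an inhibitor of cytokine signalling (5.51 ± 1.04 to 44 ± 8.13 CPM, 2.99). SOCS2-AS1, its antisense partner (3.06), moved with it, and without a stated strand the reads of the pair cannot be separated.

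**Figure D5:**
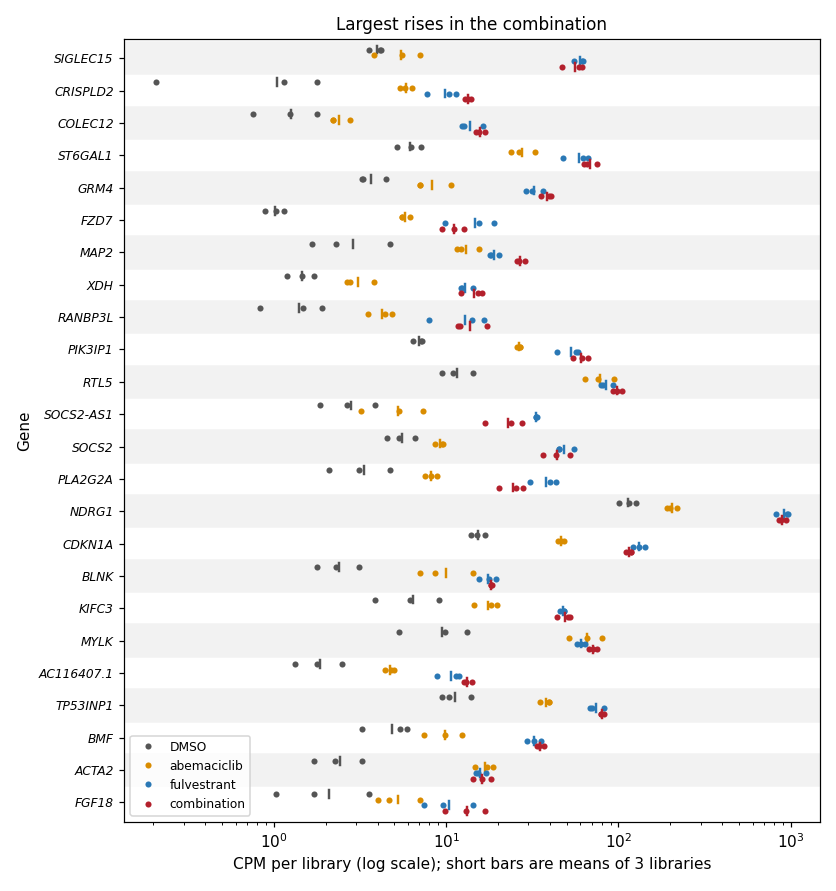
CPM of the largest rises in each of the 12 libraries, on a log axis, coloured by group, with short bars at the means of 3 libraries. In every row the 3 DMSO points lie left of the 3 combination points, and the fulvestrant points lie nearer to the combination than the abemaciclib points do for most genes, with ACTA2, MYLK and RTL5 as rows in which the abemaciclib points also lie close to the combination.

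Genes tied to growth arrest and to FOXO factors, which are active when insulin and PI3-kinase signalling is low, rose in 22 of 27 cases, beside 27.7% of all genes, with 3 lower and a median of 0.97. Besides PIK3IP1 and TXNIP, the stress gene TP53INP1 rose from 11.2 ± 2.32 to 80.6 ± 1.97 CPM (2.82), the antiproliferative gene BTG2 from 1.21 ± 0.51 to 6.49 ± 2.15 CPM (2.42), cyclin G2 (CCNG2) from 25.3 ± 2.83 to 88.2 ± 7.07 CPM (1.79) and MXD4, an antagonist of MYC, from 76.8 ± 1.71 to 229 ± 4.66 CPM (1.57). FOXO3 itself rose from 22.5 ± 0.986 to 47.6 ± 3.02 (1.08, adjusted p = 5.26e-08). IRS2, BCL6 and CDKN1B were the 3 that fell (-2.60, -0.87 and -0.36).

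Among 17 p53 targets 6 were higher and 5 lower, shares near the 27.7% and 27.5% of all genes, and 6 did not pass (median -0.18). CDKN1A, TP53INP1, the apoptosis gene BBC3 (80.0 ± 13.5 to 289.7 ± 31.1 CPM, 1.85), ZMAT3 (1.52), RRM2B and XPC (0.64) rose. The p53 inhibitor gene MDM2 fell slightly (-0.27, adjusted p = 0.0113, or 0.128 without DMSO replicate 2), DDB2, AEN and CCNG1 fell (-1.48, -1.67 and -1.17), and BAX (-0.09, 0.742) and GDF15 (-0.23, 0.666) did not pass. In the BCL2 family 6 of 13 rose and 2 fell, beside 27.7% and 27.5% of all genes, and 5 did not pass (median 0.50), with risers on both sides. The survival genes MCL1 and BCL2L1 went to 398 ± 13.4 CPM from 182 ± 3.43 (1.13) and to 92.6 ± 9.83 from 44.1 ± 3.93 (1.07), and the pro-apoptotic genes BBC3, BMF (4.84 ± 1.39 to 35.2 ± 1.71 CPM, 2.80) and BIK (0.98) rose as well. BCL2, an ER target, fell from 8.53 ± 0.798 to 3.2 ± 0.919 CPM (-1.38).

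Markers of senescence were mixed. Outside secretion, 5 of 9 rose and 3 fell, beside 27.7% and 27.5% of all genes (median 0.44). Among the risers were CDKN1A, CDKN2B, the β-galactosidase gene GLB1 (0.63) and the fucosidase gene FUCA1 (1.22). Lamin B1 (LMNB1), which senescent cells are known to lose, fell from 261, 279.9 and 297 CPM to 25, 26.1 and 18.6 CPM (log2 fold change -3.59 ± 0.12, adjusted p = 9.34e-20), and HMGB2 from 185 ± 34.5 to 6.78 ± 0.997 CPM (-4.78). Most secretory factors of senescence were at or near 0: of 31 in the list 8 passed the filter and 11 had no read in any of the 6 libraries, IL6, IL1A and IL1B among them. Of the 8 tested 6 rose (median 0.51, or -0.0087 over 22 genes with no filter on low counts), among them the vascular growth factor gene VEGFA from 34.5 ± 4.23 to 97.7 ± 8.38 CPM (1.49) and the urokinase receptor gene PLAUR from 10.6 ± 2.61 to 21.6 ± 3.35 CPM (1.00). IGFBP3 was at the floor in DMSO and at 1.91 ± 1.05 CPM in the combination, at least 2.75-fold higher. The list's summed level was 10030 CPM in the combination, of which IGFBP5 alone gave 9594.

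Of 20 interferon-stimulated genes tested, 8 were higher, beside 27.7% of all genes, 2 lower and 10 not past the threshold (median 0.16, or 0 with no filter on low counts), with DDX60 (1.33), PARP9 (1.02) and IRF1 (0.71) up and OAS3 from 28.4 ± 2.92 to 2.71 ± 0.4 CPM (-3.39). For MHC class I, 3 of 14 rose and 5 fell (median -0.13), counts near the shares over all genes (27.7% and 27.5%). The peptide transporter gene TAP1 rose from 10.8 ± 2.97 to 25.4 ± 2.88 CPM (1.20) and the loading factor gene TAPBP from 133 ± 3.6 to 199.8 ± 19.4 CPM (0.59), whereas HLA-B fell (-0.44), and reads of HLA genes can be shared between these near-identical paralogs. β2-microglobulin (B2M) did not pass (0.19, adjusted p = 0.0792, or 0.0267 without combination replicate 3).

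Genes of the protein synthesis machinery fell more often than they rose. Of 81 cytosolic ribosomal protein genes, 77 were lower, beside 27.5% of all genes, 1 higher and 3 not past the threshold (median -0.87), and their summed level was 89590 to 92570 CPM in the DMSO libraries and 47680 to 50430 CPM in the combination. The largest falls were RPSA (-1.61), RPS19 (-1.57) and RPL28 (-1.51), and RPL22 was the 1 that rose (0.29, adjusted p = 0.0036). Reads of these genes may be shared with their many processed pseudogenes. Of 27 ribosome biogenesis genes 22 fell, 1 rose and 4 did not pass (median -0.85), with the nucleolar factors NOP56 from 316 ± 44.9 to 88.3 ± 7.97 CPM (-1.84), NPM1 from 977 ± 23.9 to 376 ± 12.2 CPM (-1.38) and NCL from 1450 ± 98.8 to 697 ± 7.87 CPM (-1.06). MYC, which is known to drive such genes and is an ER target, fell from 17.6 ± 9.47 to 4.67 ± 2.13 CPM (log2 fold change -1.93 ± 0.46, adjusted p = 0.00428). Its part in the falls above was not tested.

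Transcripts for energy metabolism did not move as 1 group, where 27.7% of all genes tested were higher and 27.5% lower. Of 15 transcripts of the mitochondrial genome, 9 were higher and 0 lower (median 0.64), with MT-CO3 at 8261, 8748 and 9665 CPM in DMSO and 18900, 15700 and 18170 CPM in the combination (log2 fold change 0.98 ± 0.12, adjusted p = 3.38e-06). Their share of the counts was higher in every combination library, as given above. The nuclear genes of the same respiratory complexes did not rise with them, with 10 of 76 higher, 32 lower and 34 not past the threshold (median -0.15). Glycolysis genes were lower in 9 of 16 cases and higher in 2 (median -0.35). The glucose transporter gene SLC2A1 fell from 132 ± 12.1 to 50.6 ± 1.48 CPM (-1.38), PFKP (-1.53) and LDHA (-0.87) fell, while HK1 and PFKL rose (0.47 and 0.45). Sterol and fatty acid genes divided evenly, 11 higher and 11 lower of 28 (median -0.02): fatty acid synthase (FASN) rose from 318 ± 24.1 to 662 ± 41.8 CPM (1.06) and the desaturase gene FADS1 fell from 41.4 ± 1.25 to 7.38 ± 1.55 CPM (-2.50).

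Transcripts for protein turnover also moved in opposite directions by route, where 27.7% of all genes tested were higher and 27.5% lower. Lysosome and autophagy genes were higher in 20 of 30 cases and lower in 2 (median 0.48), including the acid glucosidase gene GAA (31.1 ± 2.5 to 70.5 ± 9.59 CPM, 1.18), the autophagy kinase ULK1 (1.03), PSAP (0.95) and LAMP1 (611 ± 64.5 to 1056 ± 69.2 CPM, 0.79). Proteasome subunits were lower in 24 of 35 and higher in 1 (median -0.42). Chaperones of the endoplasmic reticulum gave 3 higher, 8 lower and 10 not past the threshold of 21 (median -0.13), with HERPUD1 up from 90.8 ± 8.44 to 313 ± 31 CPM (1.78) and HSP90B1 down (-0.59).

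Of 21 growth factor and cytokine receptors and regulators, 10 rose and 5 fell, beside 27.7% and 27.5% of all genes (median 0.41), the 5 being IGF1R, IRS1, IRS2, RET (-1.10) and GFRA1. FGFR2, a fibroblast growth factor receptor gene, was at the floor in DMSO (0.429 ± 0.4 CPM) and at 2.05 ± 0.994 CPM in the combination. Its log2 fold change (2.41) therefore depends on the prior count of the fit. Growth hormone receptor (GHR) rose from 52 ± 6.7 to 101 ± 7.67 CPM (0.95), the prolactin receptor gene PRLR from 115 ± 6.35 to 196 ± 10.8 (0.77) and STAT3 from 91.9 ± 3.1 to 189 ± 2.91 (1.04). Of 20 cytoskeletal and contractile genes, 13 rose and 5 fell, beside 27.7% and 27.5% of all genes (median 0.53). The summed level of the list was 12840 CPM in DMSO and 12840 CPM in the combination. Filamin A (FLNA) rose from 721 ± 45.2 to 1689 ± 362 CPM (1.23) and tropomyosin 4 (TPM4) from 576 ± 23.3 to 1024 ± 72.3 (0.83), while tubulins split into TUBB6 (-2.94), TUBA1B (-2.22) and TUBB4B (-1.02) down and TUBB2A (1.11) and TUBA1A (1.30) up. Tubulin genes are near-identical in parts, so reads may be shared between them.

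Immediate early factors were higher in 6 of 14 cases and lower in 2, beside 27.7% and 27.5% of all genes (median 0.52), with FOSL2 (1.44), JUNB (1.35) and DUSP1 (1.68) up and the ER target EGR3 at the floor. Histone genes also divided. Replication-dependent histone transcripts normally lack a poly(A) tail and this kit reads poly(A) RNA, and 22 of 66 passed the filter. Of these 9 were higher, 6 lower, a share near the 27.5% of all genes, and 7 not past the threshold (median 0.24, or -0.0575 with no filter on low counts). H4C8 rose from 12.9 ± 2.12 to 66.8 ± 6.61 CPM (2.35) and H2AC6 from 54 ± 4.31 to 178 ± 14.1 (1.72), and H4C3 fell from 1278, 1027 and 809 CPM in DMSO to 78.2, 58.3 and 57.3 CPM (-4.01). Of 9 variant histone genes, 2 rose, 6 fell and 1 did not pass (median -0.41). H2AZ1 and H2AX were among those that fell (-1.89 and -2.37).

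The same libraries were set against the single drugs to show what the combination held beyond each. Against abemaciclib 3959 genes (33.5%) differed, 1871 higher and 2088 lower. Against fulvestrant only 227 (1.92%) did, 35 higher and 192 lower. Of the 6519 genes changed against DMSO, 6308 (96.8%) did not pass against fulvestrant, which does not show that they were equal. The count against fulvestrant rested on single libraries: it was 588 without fulvestrant replicate 3 (correlation of log2 CPM with replicates 1 and 2 of 0.974 and 0.981, against 0.984 between those 2), and 146 without combination replicate 3. The 35 higher became 185 and 7 in these fits, 9 when fulvestrant replicate 1 was left out, 10 when combination replicate 2 was, between 18 and 21 on omission of the remaining 2 libraries of these groups, and 19 with DESeq2. Comparisons against DMSO and against either drug share the combination libraries.

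Past the threshold in 1 direction against DMSO, fulvestrant and abemaciclib alike were 176 genes, 156 lower, of which 39 were at the floor, and 20 higher. Their number was 321, with 82 higher, without fulvestrant replicate 3, and between 123 and 185 without any other single library. The 20 higher became 3 when combination replicate 3 was left out, 6 when either combination replicate 2 or fulvestrant replicate 1 was, 9 on omission of fulvestrant replicate 2 and 12 to 22 when any 1 of the other libraries was, fulvestrant replicate 3 aside. With DESeq2 they were 12. TOP2A, of the cell cycle lists, stood at 1800 ± 72.6 CPM in DMSO, 373 ± 23.2 with abemaciclib, 166 ± 21.2 with fulvestrant and 14 ± 2.96 with both, -3.58 ± 0.12 against fulvestrant alone on the log2 scale (adjusted p = 4.98e-17). FAM111B (28.2, 29.4 and 0.868 CPM with abemaciclib, fulvestrant and both; adjusted p = 7.7e-12 against fulvestrant) and MKI67 (54.2, 43.8 and 2.21 CPM; adjusted p = 2.85e-16) were likewise lowest with both drugs. LMNB1 was also lower than with fulvestrant alone (-0.85, adjusted p = 9.32e-05).

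A gene of that set outside the cell cycle was MT2A, a metallothionein that binds zinc and copper. All 3 metallothioneins tested were lower than in DMSO (median -1.25). It measured 405, 411 and 414 CPM in DMSO and 34.9, 31.2 and 35.9 CPM in the combination, with 59 ± 3.98 under abemaciclib and 95.8 ± 11.3 under fulvestrant. The combination lay below DMSO (log2 fold change -3.59 ± 0.10, adjusted p = 1.9e-21) and below fulvestrant (log2 fold change -1.49 ± 0.10, adjusted p = 2.15e-11). MT1X and MT1F, the other metallothioneins tested, were lower than in DMSO (-1.13 and -1.25) and did not pass against fulvestrant (adjusted p = 0.116 and 0.581). Among the 20 genes higher against all 3 groups, PEA15, an adaptor that restrains ERK, stood at 113 ± 12.4 CPM in DMSO, 176 ± 13.8 with abemaciclib, 197 ± 12.7 with fulvestrant and 281 ± 17 with both, 0.51 ± 0.09 above fulvestrant on the log2 scale (adjusted p = 0.000422). SOX4, CLDN3 and ZMAT3 were in this set too, by smaller margins over fulvestrant (0.32, 0.38 and 0.48), and none of the 3 passed without fulvestrant replicate 1 or 2 or without combination replicate 2 or 3 (adjusted p = 0.0594 to 0.246). SOX4 did not pass without combination replicate 1 (adjusted p = 0.155) or with DESeq2 (adjusted p = 0.0607) either. PEA15 and MT2A passed against fulvestrant whichever fulvestrant or combination library was left out.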

How the data were processed

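Gene counts of 12 libraries from CAMA-1 cells, 3 per group, were taken from 1 table of 60656 rows, grouped by the treatment label. According to the labels and the methods, the authors made 3′ QuantSeq libraries, trimmed reads with BBDuk, aligned them to GRCh38 with STAR, counted them per gene symbol with featureCounts 2.0.1 on GENCODE annotation and deposited the raw counts, with no molecular identifiers named. Such 3′ counts can be split between near-identical paralogs and pseudogenes, and the strand setting is not given in the sources used here. The 44 unnamed rows held 0 reads and were left out. Names that occur in several rows (76 names, 0.016% of reads) were kept as separate rows.

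Counts were tested with edgeR 4.0.16 (R 4.3.3, limma 3.58.1): TMM scaling, filterByExpr with a minimum count of 10 and total of 15 (11803 genes), a robust quasi-likelihood fit of 4 group means over the 12 libraries, and Benjamini-Hochberg adjustment over all genes tested. Each contrast was two-sided, with a threshold of 0.05. DESeq2 1.42.0 (the authors used another version) was an alternative, as were other scalings and filters, a replicate block, a fit on 6 libraries and the omission of single libraries. The code was tested on simulated counts.

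The gene lists, comparisons and rules were chosen with earlier results of these data known. Named were the 18 lost genes, the 30 highest genes, the 10 highest held genes, the 25 largest rises, the 15 largest falls, the 15 genes that differ most from both single drugs and, per list, key members and the 3 largest changes each way. Members of a list outside this rule, the floor genes besides the lost ones, and genes that entered or left the 200 highest were chosen after their values were seen. Some genes that these rules would name are not reported here.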

Additional observations from a re-analysis of the deposited data

How the results depend on the processing

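The count of genes changed by the combination against DMSO lay between 5835 and 6604 under every alternative run (5965 with DESeq2, 6524 with upper-quartile factors), and 87.3% to 99.5% of the genes called were shared, 0 of them in the opposite direction. Deviations of same-numbered libraries correlated by 0.0892, 0.0258 and 0.1065, so the numbers were not taken as pairs. A replicate block gave 6472 genes against DMSO, 203 against fulvestrant and 3886 against abemaciclib. Leaving out single fulvestrant or combination libraries gave 146 to 588 genes against fulvestrant.

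Lost genes numbered 34 with a minimum of 5 DMSO counts, 10 with a minimum of 20, 38 when 1 read was allowed in each combination library, 19 after thinning to the smallest library and 18 to 30 without single libraries. Gained genes numbered 4 with a minimum of 5 counts and 0 to 2 without single libraries. Held genes numbered 56 when the limit was 0.5. These limits change the rule itself.

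Among the medians of 34 lists, 395 of 441 values moved by less than the spread between libraries. With no filter the median turned to -0.0087 for senescence-associated secretory genes, 0 for interferon-stimulated genes and -0.0575 for replication-dependent histones, where untested low genes enter. The median of sterol and fatty acid genes ranged from -0.119 to 0.0521 without single DMSO or combination libraries.

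Of 3212 values against DMSO for 248 genes named in the text, 3185 kept their side of the threshold. Another 12 lost it, in CDK4, CDK7, GATA3 and MDM2, and 15 gained it, among them RB1, POLD1 and TUBB in the fit on the 6 libraries of the comparison. Against fulvestrant, SOX4, CLDN3 and ZMAT3 lost theirs without several single libraries. No value past the threshold changed sign, and 43 values of 15 genes not past it did, none larger than 0.1131. Depth limits the lost genes: a transcript under 0.582 to 0.722 CPM could have gone unseen in a combination library. Some below that level were seen, such as MYBL2 with 1 read (0.241 CPM) in combination replicate 1.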
